A study of Mus musculus with 4 samples.

Results

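The genes described here encode the machinery that licenses replication origins and runs the replication fork. They are 43 genes named from knowledge of DNA replication, all 43 of which had a probe set carrying their symbol alone among the 19938 genes of the array, and each was read from its brightest probe set by mean over the 4 arrays. They fall into 9 genes of origin licensing, 12 of the replicative helicase, 19 of the polymerases and fork and 3 of nucleotide supply. The arrays held RNA that had been immunoprecipitated from lysed early erythroid progenitors of C57BL/6 mouse fetal liver at E14.5. Control rabbit IgG was used for 2 arrays, and for the other 2 an antibody that recognises a protein that binds RNA (RBP). The cells were what remained after magnetic depletion of CD34+, CD41+, CD16/32+, Sca-1+ and lineage-positive cells, sorted to be c-Kit+ and CD71 low. No group carried a transgene or a drug, and the labels do not say whether animals or livers were pooled. They do not name the protein either. Knowledge of the publication has it as ZFP36L2, an AU-rich element binding protein of the tristetraprolin family; that identity was not checked here. An RBP minus IgG difference compares the RNA recovered with each antibody. It does not give the abundance of the mRNA in the cell, which was not measured.

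Origins of replication are marked by the origin recognition complex (ORC), onto which Cdc6 and Cdt1 load the ring-shaped MCM helicase before S phase. Cdc45 and the GINS complex then join the ring to make the active helicase, and primase, the replicative polymerases, the sliding clamp and its loader build the fork. Early erythroid progenitors of the fetal liver divide quickly, and most of these genes are known targets of the E2F transcription factors.

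Promoter sequences were searched for E2F words. RefSeq promoter entries (250 bases before to 50 after the start, GRCm38.p6) were matched by symbol for 35 of the 43 genes, with 42 promoters. An E2F word, taken as TTTCCCGC, TTTCGCGC, TTTGCCGC or TTTGGCGC on either strand with overlapping words counted apart, stood in 14 of these 42 promoters (33.3%), against 744 of all 32851 promoters (2.26%). Most of the matched genes thus had none in this window, Mcm2 among them. CCAAT on either strand stood in 25 of 42 (59.5%), against 37.4% of all promoters. The median GC content was 58.8% in the 42 promoters and 52.7% in all promoters, and neither comparison allows for it. The 14 promoters with an E2F word belonged to 14 genes, of which 11 were among the 20 matched genes that were higher with RBP in the test below and 3 among the 15 that did not pass, a split given as a description. A word match is no measured site, and the arrays do not report on transcription. The following promoters, each 5′ to 3′ on the gene's strand, show the words in capitals: the first 4 belong to subunits of the MCM ring that were all higher with RBP, Cdc6 to a loading factor that was higher, and Orc3 to an ORC subunit that did not pass.
Mcm3, chr1:20820263-20820562, minus strand: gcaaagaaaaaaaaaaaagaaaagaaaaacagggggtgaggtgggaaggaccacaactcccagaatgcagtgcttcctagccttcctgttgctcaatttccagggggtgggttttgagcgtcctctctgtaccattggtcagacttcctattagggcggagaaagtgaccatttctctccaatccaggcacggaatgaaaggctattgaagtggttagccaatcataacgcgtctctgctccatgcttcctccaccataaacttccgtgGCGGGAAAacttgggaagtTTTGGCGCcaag
Mcm5, chr8:75109259-75109558, plus strand: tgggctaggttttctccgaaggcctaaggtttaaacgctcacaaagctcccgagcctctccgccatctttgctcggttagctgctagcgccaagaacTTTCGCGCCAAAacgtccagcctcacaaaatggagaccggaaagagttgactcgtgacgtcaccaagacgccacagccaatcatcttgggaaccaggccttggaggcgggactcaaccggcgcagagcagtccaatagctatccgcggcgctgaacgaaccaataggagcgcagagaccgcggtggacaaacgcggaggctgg
Mcm6, chr1:128359656-128359955, minus strand: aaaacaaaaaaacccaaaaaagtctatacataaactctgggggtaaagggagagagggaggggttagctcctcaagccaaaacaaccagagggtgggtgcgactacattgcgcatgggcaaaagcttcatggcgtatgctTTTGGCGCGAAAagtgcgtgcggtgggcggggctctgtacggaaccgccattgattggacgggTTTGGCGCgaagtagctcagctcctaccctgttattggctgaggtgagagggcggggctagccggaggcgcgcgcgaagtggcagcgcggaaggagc
Mcm7, chr5:138171834-138172133, minus strand: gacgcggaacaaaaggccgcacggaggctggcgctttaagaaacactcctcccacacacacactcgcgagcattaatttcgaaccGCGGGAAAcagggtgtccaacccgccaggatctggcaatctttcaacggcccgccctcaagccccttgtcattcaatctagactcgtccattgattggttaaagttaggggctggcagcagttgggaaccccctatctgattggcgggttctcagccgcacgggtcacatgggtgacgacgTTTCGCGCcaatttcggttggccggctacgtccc
Cdc6, chr11:98907901-98908200, plus strand: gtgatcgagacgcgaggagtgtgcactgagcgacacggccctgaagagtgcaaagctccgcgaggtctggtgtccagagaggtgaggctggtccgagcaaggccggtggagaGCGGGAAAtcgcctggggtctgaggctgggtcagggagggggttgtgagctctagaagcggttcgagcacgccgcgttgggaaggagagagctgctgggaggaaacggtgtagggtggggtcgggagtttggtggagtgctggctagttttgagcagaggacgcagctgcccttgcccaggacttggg
Orc3, chr4:34614893-34615192, minus strand: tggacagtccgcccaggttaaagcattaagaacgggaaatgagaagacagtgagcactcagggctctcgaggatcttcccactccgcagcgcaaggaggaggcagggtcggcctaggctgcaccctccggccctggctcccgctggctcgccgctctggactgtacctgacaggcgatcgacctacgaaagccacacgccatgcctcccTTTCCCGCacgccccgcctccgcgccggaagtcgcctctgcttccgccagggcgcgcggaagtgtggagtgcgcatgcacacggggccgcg
Mcm7 has 2 promoters in RefSeq, of which the one with E2F words is shown. The words in Mcm5 overlap on opposite strands, as do the first pair in Mcm6. The 43 genes lie on 14 chromosomes, with 8 of them on chromosome 5, and their median genomic span is 17.3 kb. Spearman's rho between that span and the difference was 0.16 over the 43 genes, against 0.37 over the 12831 genes that lay above the level of the chemosensory receptors and had a span in RefSeq. Genes are not independent replicates, and no test was made.

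Of 43 replication genes, 24 were higher with RBP in limma's moderated test at an adjusted p under 0.05 over all 19938 genes, 0 were lower, and 19 did not pass. None was lower at an unadjusted p under 0.05 in that test either. Over all genes, 23.8% were higher and 6.54% were lower, a split that became 35.5% and 1.59% when arrays were centred on the chemosensory genes and 5.02% and 5.34% with the trend of the difference on level removed. The median difference of the 43 genes was 0.74 on the log2 scale, against -0.02 over all genes, and called genes were 1.4-fold to 2.9-fold higher. Among all genes of like mean level the median was close to theirs, at 0.78 at 8 to 9, 0.74 at 9 to 10 and 0.61 at 10 to 11. Both RBP arrays lay above both IgG arrays for 36 of 43 genes, against 37.4% of all genes, and 11 of 43 were at least 2-fold higher without overlap, against 13.5%. Among all genes of like level both shares were larger than over all levels. They were 77.4% and 35.7% at a level of 8 to 9, 77.1% and 31% at 9 to 10, and 67.8% and 20.3% above 10. Those of the replication genes were 83.7% and 25.6%, and the gaps were not tested.

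These shares have to be read beside the level of the genes, because the share of genes higher with RBP varied with level: it was 23.4% at a level of 6 to 7, reached 57.8% at 9 to 10 and was 39.1% at 11 to 12. The mean level of every replication gene lay above 5.36, the 95th percentile of 1244 chemosensory receptor genes, which serve here as a background level since the cells are not known to use them. Among all 2329 genes at a level of 8 to 9, 56.4% were higher, and 7 of the 13 replication genes there were. At 9 to 10 the share was 57.8% of all genes and 5 of 10 replication genes, and at 7 to 8 it was 47.1% of all genes and 2 of 6. At 10 to 11, where all 6 genes of the MCM ring lie, it was 50.1% of all genes and 10 of 12 replication genes. The replication genes' share was thus near or below that of all genes in the 3 lower of these bins and above it in the bin at 10 to 11, with no test made of that. Genes lower with RBP were scarcer than the 6.54% over all levels at 7 to 8 (4.44%), 8 to 9 (2.28%) and 9 to 10 (2.97%). Above 10, where the MCM ring lies, they were not, at 7.29%. The 0 of 43 stands beside those shares. With the level trend removed, the median of the replication genes was 0.05, with 1 gene higher (Mcm2) and 2 lower (Gins2 and Prim2).

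**Figure D1:**
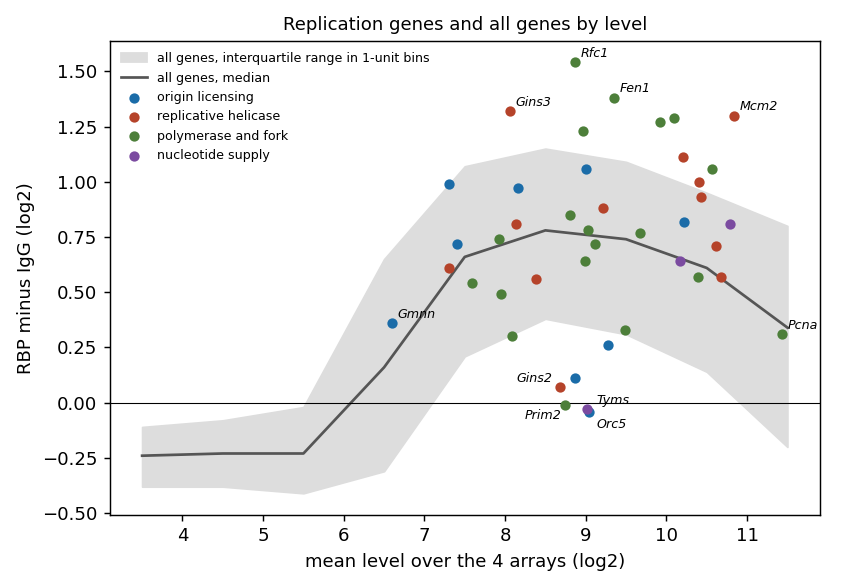
RBP minus IgG difference (log2) against the mean level over the 4 arrays (log2) for the 43 replication genes, coloured by role, with the median and interquartile range of all genes in bins of 1 level unit. The replication genes lie on both sides of the median of all genes, from Rfc1 at 1.54 to Orc5 at -0.04.

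The arrays differed in ways that touch these values. The IgG arrays had medians of 5.85 and 5.93 over all probe sets and interquartile ranges of 2.91 and 2.87. Those of the RBP arrays were 5.57 and 5.62, with wider interquartile ranges of 3.73 and 3.61. Of 9 erythroid progenitor markers measured, all 9 lay above the background level and 4 were higher with RBP (Epor, Gata2, Kit and Tal1), and the list's mean level was 9.55 and 9.65 with IgG and 10.14 and 10.23 with RBP. Markers of cells that the sort was set to remove were also present. Of 7 such genes 6 lay above the background level, and their mean was 8.23 and 7.51 with IgG and 8.11 and 7.39 with RBP. Mpo, a granule enzyme of myeloid cells, read 11.40 and 10.53 with IgG and 11.49 and 10.56 with RBP, and Cd34 read 9.92 and 8.92 with IgG and 9.74 and 8.98 with RBP. All 7 were higher on RBP array 1 than on RBP array 2, and 6 of 7 were higher on IgG array 1 than on IgG array 2. Of the 7, 0 were higher with RBP and 1 was lower, the neutrophil elastase gene Elane, which read 10.09 and 9.26 with IgG and 8.74 and 7.74 with RBP. Their part in the results was not tested. Between replicate arrays of such bulk samples, fewer cells of a type, less RNA per cell and less recovery cannot be told apart. The difference of Elane between the groups is, as for every gene here, one between immunoprecipitates, and its cause was not tested. Of the remaining lists, 0 of 6 hepatocyte, 0 of 7 macrophage and 0 of 5 lymphoid markers were higher, and 1 of 6 endothelial and stromal markers was (Pdgfrb), while 2 macrophage markers and 1 lymphoid marker were lower. Most markers of these lists lay at a level of 5 to 7, where few genes were higher. The share of all genes was 4.06% at 5 to 6 and 23.4% at 6 to 7. Most erythroid markers lay at 9 to 10, where it was 57.8%, so the counts do not show recovery particular to erythroid genes. The median difference of the replication genes was 0.73 between the arrays numbered 1 alone, with 40 of 43 positive, and 0.85 between those numbered 2 alone, with 41 of 43 positive. The labels do not say whether replicates were separate cell preparations, so the p-values reflect array-to-array spread only, and that spread may be technical. With 2 arrays against 2 an exact permutation test cannot give a p below 0.333, and the calls depend on the variance that limma shares over genes.

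**Figure D2:**
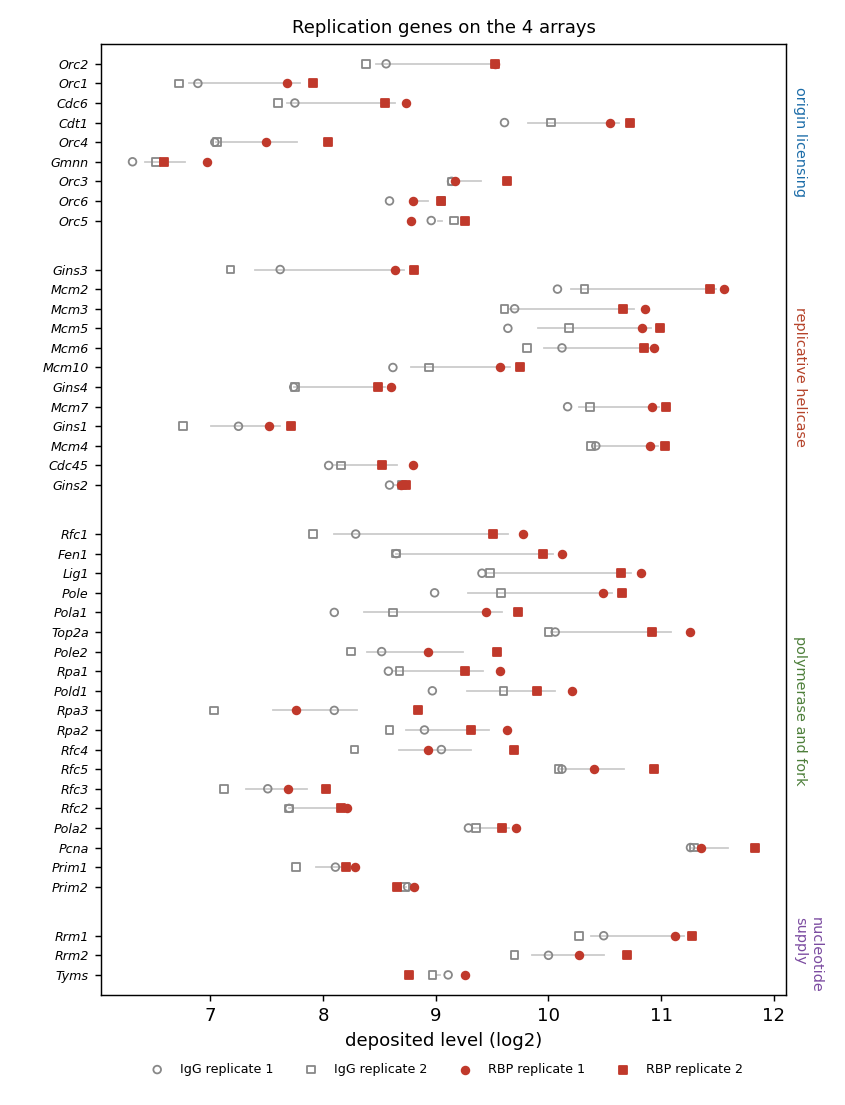
Deposited log2 level of each of the 43 replication genes on the 4 arrays, ordered by role and by difference, with open grey marks for IgG, filled red marks for RBP, circles for replicate 1 and squares for replicate 2. Grey lines join the group means, and the marks of the groups overlap for 7 genes.

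Of 9 origin licensing genes, 4 were higher with RBP (Orc2, Orc1, Cdc6 and Cdt1) and 5 did not pass, with a median difference of 0.72. The role counts here and below stand beside 23.8% of all genes higher with RBP. By level that share was 56.4% at 8 to 9, 57.8% at 9 to 10 and 50.1% at 10 to 11. The median differences of all genes at those levels were 0.78, 0.74 and 0.61. Orc2, a core ORC subunit, read 8.56 and 8.38 with IgG and 9.53 and 9.53 with RBP. Its RBP arrays were level with each other and well above both IgG arrays, a difference of 1.06 ± 0.15 (SE; limma, adjusted p = 0.00705). Orc1, the ATPase subunit whose amount varies over the cell cycle, read 6.89 and 6.72 with IgG and 7.68 and 7.91 with RBP, with no overlap. It differed by 0.99 ± 0.16 (SE; adjusted p = 0.0102). The remaining ORC subunits did not pass, although Orc4 came close at 0.72 ± 0.21 (limma, adjusted p = 0.0519), with an RBP array 2 that exceeded RBP array 1 by 0.55. Orc3 read 9.14 on both IgG arrays and 9.17 and 9.63 with RBP, so that RBP array 1 barely left the IgG value. Orc6 read 8.59 and 9.05 with IgG and 8.80 and 9.05 with RBP, and its groups overlapped. Orc5 read 8.96 and 9.16 with IgG and 8.78 and 9.26 with RBP, with the RBP arrays on either side of the IgG pair. Its difference was -0.04, with a 95% interval of -0.56 to 0.47. The 6 subunits of this complex thus ranged from -0.04 to 1.06, with 2 of 6 higher; differences between subunits were not tested.

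Both factors that load the MCM ring were higher. Cdc6, the ATPase that joins ORC to recruit the helicase, read 7.75 and 7.60 with IgG and 8.74 and 8.55 with RBP. Cdt1, which brings the MCM ring to the origin, read 9.61 and 10.02 with IgG and 10.55 and 10.72 with RBP. Both were without overlap, at 0.97 ± 0.16 (SE; limma, adjusted p = 0.00952) for Cdc6 and 0.82 ± 0.19 (adjusted p = 0.0266) for Cdt1. Gmnn, which encodes geminin, the inhibitor of Cdt1, differed by 0.36 ± 0.19 and did not pass (adjusted p = 0.192), with a 95% interval of -0.11 to 0.83. The 4 licensing calls were all lost without RBP array 1 (limma, adjusted p from 0.0506 to 0.104), without RBP array 2 (0.0501 to 0.157), with quantile normalization and with the level trend removed. In these settings the differences of the 4 genes stayed positive.

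Of 12 helicase genes, 9 were higher with RBP and 3 did not pass, with a median difference of 0.84. The share of calls, 75% here and 52.6% among polymerase and fork genes, changed order without RBP array 1 (16.7% against 31.6%) and with quantile normalization (16.7% against 21.1%). All 6 subunits of the MCM ring, Mcm2 to Mcm7, were higher with RBP, from 0.57 to 1.30, and none of their groups overlapped. Of all genes above a level of 10, where all 6 lie, 47.2% were higher. Both RBP arrays lay above both IgG arrays for 67.8% of them. All 6 differences remained positive with quantile normalization and with centring on the chemosensory genes, and 5 of 6 with the level trend removed, where Mcm4 turned to -0.04. Mcm2 read 10.08 and 10.32 with IgG and 11.56 and 11.43 with RBP. It differed by 1.30 ± 0.16 (SE; limma, adjusted p = 0.00596), which is 2.46-fold. Mcm2 was the replication gene whose call held in every alternative that was run, with adjusted p up to 0.0485, the value with the level trend removed. Mcm3 read 9.70 and 9.61 with IgG and 10.86 and 10.66 with RBP, and Mcm5 read 9.64 and 10.18 with IgG and 10.83 and 10.99 with RBP. The IgG arrays of Mcm5 were 0.55 apart, so its difference of 1.0 ± 0.22 (SE; adjusted p = 0.0216) is less precise than that of Mcm3, at 1.11 ± 0.15 (adjusted p = 0.00681). Mcm6 (0.93 ± 0.17) and Mcm7 (0.71 ± 0.16) followed. Mcm4 read 10.42 and 10.38 with IgG and 10.90 and 11.03 with RBP and had the smallest difference of the ring, 0.57 ± 0.15 (limma, adjusted p = 0.0342). Its 95% interval, 0.21 to 0.93, and that of Mcm2, 0.90 to 1.69, overlap slightly, and the gap between subunits was not tested. Without RBP array 1 the ring kept 1 call and without RBP array 2 it kept 2, and 2 remained with quantile normalization.

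The factors that turn the MCM ring into a moving helicase ranged from 0.07 to 1.32. Gins3, a subunit of the GINS tetramer, read 7.62 and 7.18 with IgG and 8.64 and 8.81 with RBP. Both RBP arrays were more than 2-fold above the higher IgG array, and the difference was 1.32 ± 0.20 (SE; limma, adjusted p = 0.00776), the largest of the role. Gins4 was also higher (0.81 ± 0.14), whereas Gins1 (0.61 ± 0.21) did not pass (adjusted p = 0.0769). Gins2 read 8.59 and 8.70 with IgG and 8.69 and 8.74 with RBP, so that all 4 arrays lay close together and the groups overlapped. Its difference was 0.07 ± 0.14 (limma, adjusted p = 0.736), with a 95% interval of -0.29 to 0.42. With the level trend removed Gins2 was called lower (-0.71, adjusted p = 0.0379). The 4 GINS proteins form a complex of equal parts, and their mRNAs ranged here from 0.07 to 1.32. Cdc45, the helicase cofactor that GINS accompanies, read 8.05 and 8.16 with IgG and 8.80 and 8.52 with RBP and narrowly missed the threshold at 0.56 ± 0.17 (limma, adjusted p = 0.0511). Mcm10, which helps the assembled helicase start, was higher by 0.88 ± 0.18 (adjusted p = 0.0171). Of the 9 helicase calls, 2 remained without RBP array 1, 3 without RBP array 2 and 2 with quantile normalization.

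**Figure D3:**
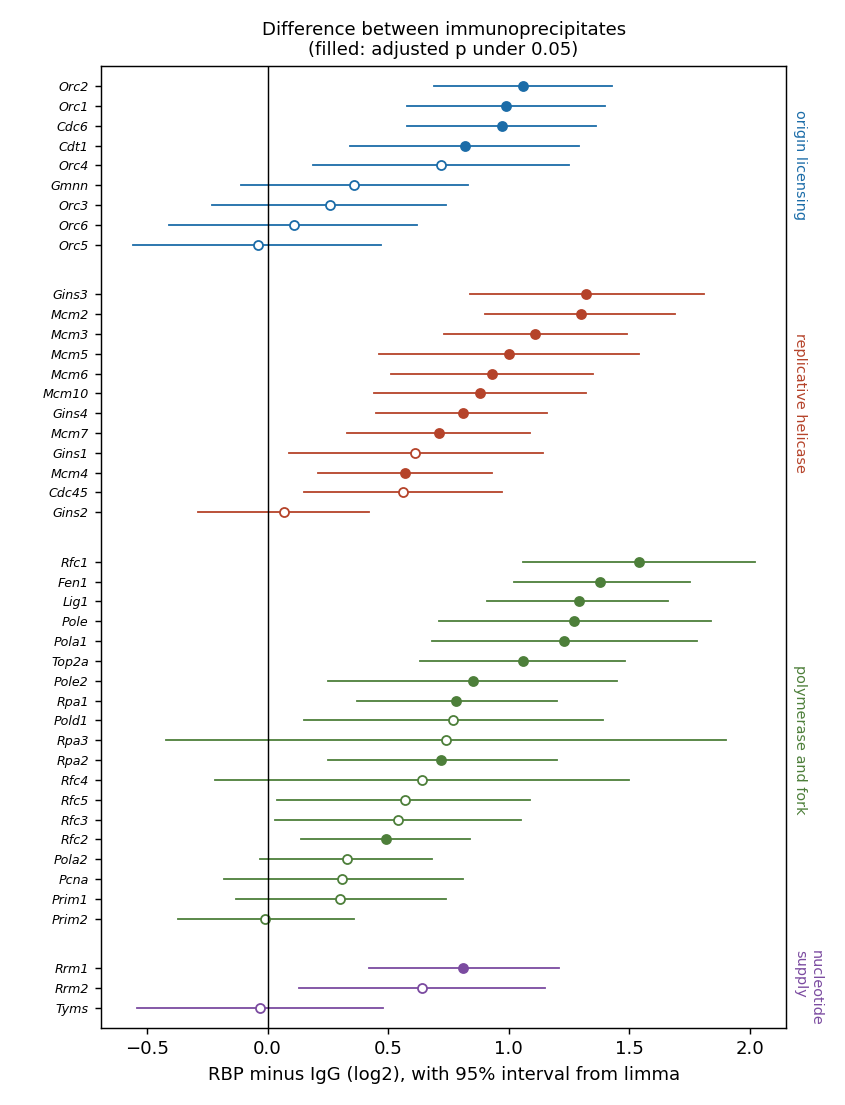
RBP minus IgG difference (log2) of each of the 43 replication genes with its 95% interval from limma, ordered by role. Filled points passed an adjusted p under 0.05 (24 genes) and open points did not (19 genes); the differences run from -0.04 for Orc5 to 1.54 for Rfc1.

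Of 19 polymerase and fork genes, 10 were higher with RBP while 9 did not pass, at a median difference of 0.74. Rfc1, the large subunit of the clamp loader, read 8.29 and 7.91 with IgG and 9.77 and 9.51 with RBP. Its difference of 1.54 ± 0.19 (SE; limma, adjusted p = 0.00604), or 2.9-fold, was the largest of all 43 genes. Fen1, the nuclease that trims the flaps of Okazaki fragments, read 8.65 on both IgG arrays and 10.12 and 9.95 with RBP, and differed by 1.38 ± 0.15 (adjusted p = 0.00558). Lig1, the ligase that seals those fragments, read 9.41 and 9.48 with IgG and 10.82 and 10.64 with RBP, and differed by 1.29 ± 0.15 (adjusted p = 0.00568). The replicate arrays of Fen1 and Lig1 lay within 0.18 of each other while the groups were more than 1 log2 unit apart. Rfc1, Fen1 and Lig1 kept their calls without each array in turn and with quantile normalization (limma, adjusted p up to 0.0428). They lost them with the level trend removed, where they differed by 0.76, 0.63 and 0.62 (adjusted p = 0.0634, 0.0532 and 0.0584).

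All 5 subunits of the clamp loader had positive differences, from 0.49 to 1.54, of which those of Rfc2, Rfc3, Rfc4 and Rfc5 turned negative with the level trend removed. As reported, Rfc1 and Rfc2 (0.49 ± 0.14; limma, adjusted p = 0.0482) were higher and Rfc3 (0.54 ± 0.21), Rfc4 (0.64 ± 0.35) and Rfc5 (0.57 ± 0.21) did not pass, although their differences were no smaller than that of Rfc2; differences between subunits were not tested. The small subunit Rfc4 was unsteady, with IgG arrays 0.77 and RBP arrays 0.76 apart and overlapping groups. Its interval of -0.22 to 1.5 covers no difference and stops just short of the 1.54 of Rfc1. Rfc2 lost its call in 8 of the alternatives, among them without IgG array 1, without either RBP array and with quantile normalization, where it differed by 0.03. Pcna, the clamp itself, read 11.26 and 11.29 with IgG and 11.35 and 11.83 with RBP. RBP array 1 sat just above the IgG arrays and RBP array 2 well above them, and the difference was 0.31 ± 0.20 (limma, adjusted p = 0.264). Pcna has another probe set, with levels within 0.02 of these on every array and a difference of 0.32, and the array cannot show whether both read the same transcript or a near-identical copy.

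Among the polymerases, the catalytic subunits of polymerases epsilon and alpha were higher. Pole, which copies the leading strand, read 8.99 and 9.58 with IgG and 10.48 and 10.65 with RBP. The difference was 1.27 ± 0.23 (SE; limma, adjusted p = 0.0124), with IgG arrays 0.59 apart but no overlap. Its partner Pole2 was higher by 0.85 ± 0.24 (adjusted p = 0.0466), a call lost without IgG array 1, IgG array 2 or RBP array 2, with quantile normalization and with the level trend removed. Pold1, the catalytic subunit of polymerase delta, which copies the lagging strand, differed by 0.77 ± 0.25 and did not pass (adjusted p = 0.0663). In polymerase alpha-primase, which lays the primers, Pola1 differed by 1.23 ± 0.22 (limma, adjusted p = 0.0125), whereas its other 3 subunits did not pass. Pola2 differed by 0.33 ± 0.15. Prim1, the catalytic primase subunit, read 8.11 and 7.76 with IgG and 8.28 and 8.20 with RBP, with a narrow gap between the groups and a difference of 0.30 ± 0.18 (adjusted p = 0.230). Prim2, the large primase subunit, read 8.75 and 8.73 with IgG and 8.81 and 8.66 with RBP. The RBP arrays lay on either side of the IgG pair, and the difference of -0.01 ± 0.15 (limma, adjusted p = 0.971) has a 95% interval of -0.37 to 0.36. With the level trend removed Prim2 was called lower (-0.79, adjusted p = 0.0312).

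Of the 3 subunits of RPA, which coats unwound DNA, Rpa1 (0.78 ± 0.17; limma, adjusted p = 0.0208) and Rpa2 (0.72 ± 0.19; adjusted p = 0.0380) were higher. Rpa3 read 8.10 and 7.03 with IgG and 7.76 and 8.84 with RBP, the widest replicate gaps of all 43 genes, and its difference of 0.74 ± 0.47 did not pass (adjusted p = 0.266); its dimmer probe set gave 0.39. Top2a, the topoisomerase that untangles daughter strands, read 10.06 and 10.00 with IgG and 11.26 and 10.92 with RBP. It was higher by 1.06 ± 0.17 (SE; limma, adjusted p = 0.00972). A further probe set of Top2a lay at 3.07 and 3.38 with IgG and 2.80 and 2.75 with RBP, below the background level, and gave -0.45 (adjusted p = 0.0967 over all probe sets). With the mean of both probe sets Top2a differed by 0.30 and lost its call (adjusted p = 0.181), as it did without RBP array 1 (adjusted p = 0.0809). Of the 10 calls in this role, 6 remained without RBP array 1, 4 without RBP array 2, 4 with quantile normalization and 0 with the level trend removed.

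Nucleotide supply gave 1 call of 3. Rrm1, the large subunit of ribonucleotide reductase, which makes the building blocks of DNA, read 10.49 and 10.27 with IgG and 11.12 and 11.27 with RBP. It was higher by 0.81 ± 0.16 (SE; limma, adjusted p = 0.0161), a call lost without RBP array 1 (adjusted p = 0.0871), without RBP array 2 (0.128) and with the level trend removed (0.421). Rrm2, the small subunit, read 10.00 and 9.70 with IgG and 10.27 and 10.70 with RBP, without overlap, and did not pass at 0.64 ± 0.21 (adjusted p = 0.0658). Tyms, thymidylate synthase, which makes the thymine nucleotide, read 9.11 and 8.97 with IgG and 9.26 and 8.76 with RBP. Its RBP arrays enclosed the IgG arrays, and the difference was -0.03 ± 0.21 (limma, adjusted p = 0.916), with a 95% interval of -0.54 to 0.48.

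Of the 19 genes that did not pass, 12 had both RBP arrays above both IgG arrays and 7 had an unadjusted p under 0.05 in limma. Over all genes, called or not, both RBP arrays lay above both IgG arrays for 37.4%. The 95% interval reached 0.5 on the log2 scale for 15 of the 19, so for those genes these arrays leave a difference of that size possible. The 4 whose interval stopped short of 0.5 were Gins2, Orc5, Prim2 and Tyms, each of a different role. The intervals do not cover the choice of scaling, and centring on the chemosensory genes moved these 4 to 0.38, 0.27, 0.31 and 0.28, of which none passed but all were positive.

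Other genes of the pathway, taken from a list of firing factors, checkpoint genes, further polymerase subunits, chromatin assembly factors and nucleotide enzymes, were higher in 45 of 66 measured cases and lower in 0, with a median difference of 0.82. Among firing and checkpoint genes 19 of 25 were higher, led by Clspn, the fork checkpoint adaptor claspin (1.72 ± 0.18), the checkpoint kinase Atr (1.44 ± 0.16), the MCM relative Mcm8 (1.38 ± 0.16) and Rif1, a regulator of origin timing (1.33 ± 0.19). Among further polymerase and fork genes 16 of 24 were higher. Top2b (1.79 ± 0.18), the clamp unloader Atad5 (1.78 ± 0.19), the ligase Lig3 (1.47 ± 0.15) and the chromatin assembly factor Chaf1a (1.20 ± 0.19) led them. Of 17 further nucleotide genes 10 were higher, led by Cad, which starts pyrimidine synthesis (1.64 ± 0.18), Ctps (1.34 ± 0.22), Umps (1.31 ± 0.26) and Mthfd1 (1.16 ± 0.16). These counts stand beside 23.8% of all genes. The median level of the 66 was 9.16, and the share of all genes was 56.4% at 8 to 9 and 57.8% at 9 to 10. The median differences of all genes at those levels were 0.78 and 0.74. With the level trend removed 6 of the 66 were higher and 2 were lower (Cdk2 and Dtymk, which are named after their values were seen). Without RBP array 1 the count was 13, and it was 17 without RBP array 2 and 17 with quantile normalization. Clspn, Mcm8, Top2b, Atad5, Lig3 and Cad kept their calls with the level trend removed (limma, adjusted p from 0.0243 to 0.0402).

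**Figure D4:**
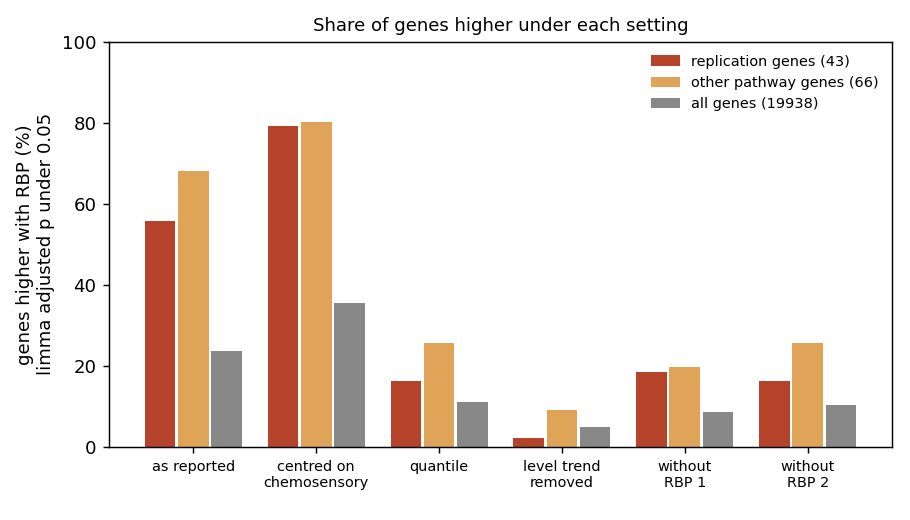
Percentage of genes higher with RBP (limma, adjusted p under 0.05) among 43 replication genes, 66 other pathway genes and all 19938 genes, as reported and under 5 alternative settings. The share of replication genes is 55.8% as reported and 79.1% centred on the chemosensory genes. It is 16.3% with quantile normalization and 2.33% with the level trend removed. The shares of all genes are 23.8%, 35.5%, 11.1% and 5.02%, in that order.

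The mRNA of the presumed target of the antibody, Zfp36l2, read 11.26 and 11.31 with IgG and 12.22 and 11.87 with RBP, a difference of 0.76 that lies near the median of the replication genes.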

How the data were processed

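RNA from 4 immunoprecipitates (2 with control IgG, 2 with an RBP antibody; groups and replicate numbers from the sample titles) was measured on Affymetrix whole-transcript arrays. The authors deposited a log2 value for every probe set, for which RMA and affy are listed per the submitters' processing notes. Versions, background step and filters are not stated in those notes, and no scanner files were used. That the scale is log2 follows from the values, which run from 1.83 to 13.87. The arrays' quartiles differ, so the values had not been made equal in distribution.

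The platform annotation pairs 21789 of 35556 probe sets with 1 symbol, 1621 with several and 12146 with none. The Entrez identifier of 21698 was found in RefSeq (GRCm38.p6), which changed 0 symbols. Each of 19938 genes was read from its brightest probe set, and RBP minus IgG was tested with limma 3.58.1 in R 4.3.3 (lmFit and eBayes, two-sided, Benjamini-Hochberg over all genes, threshold 0.05, no filter on level; prior degrees of freedom 3.76, residual 2). Standard errors and 95% intervals are limma's. The script was first run on simulated data with known differences, and that run supports no statement here. The number of arrays limits the precision: the median SE of a difference was 0.17.

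The members and lists were chosen with earlier results of these data known. All members are named. Values per array are given for the 4 largest and 3 smallest differences of each role and for members whose probe sets disagree. From each list of other pathway genes, up to 4 called genes per direction are named. Alternative settings covered normalization (quantile), centring (chemosensory or all genes), a level filter, the probe set rule, removal of the loess trend on level (span 0.3), a replicate block, omission of single arrays, moderation (trend, robust) and a threshold of 0.1. Values from arrays of each number alone were chosen after seeing the data. A background correction could not be varied. No value column was left out.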

Additional observations from a re-analysis of the deposited data

How the results depend on the processing

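Scaling, the level trend and the RBP arrays set how many genes passed. The number of replication genes higher with RBP was 24 as reported, 7 with quantile normalization and 1 with the level trend removed, and it ran from 7 to 24 when an array was left out, at 8 without RBP array 1 and 7 without RBP array 2. The number lower was 0 as reported and when any array was left out, and 2 with the level trend removed. Of other pathway genes 45 were higher as reported, 17 with quantile normalization, 6 with the level trend removed and 13 to 45 when an array was left out; 0 were lower as reported and 2 with the level trend removed. The median difference of the replication genes was 0.74 as reported, 0.36 with quantile normalization, 1.05 centred on the chemosensory genes, 0.77 centred on all genes, 0.72 with the mean over probe sets and 0.05 with the level trend removed. It ran from 0.70 to 0.85 when an array was left out, and was 0.73 and 0.85 for the arrays numbered 1 and 2 alone. The median of all genes, -0.02 as reported, was 0.16 with quantile normalization and 0.29 with chemosensory centring. With chemosensory centring 34 replication genes and 53 other pathway genes were higher, beside 35.5% of all genes. The share of all genes was 11.1% with quantile normalization, and 16% at a level of 8 to 9 and 17.1% at 9 to 10. It was 5.02% with the level trend removed. Of all genes 8.65% were higher without RBP array 1 and 10.3% without RBP array 2, against 23.8% as reported. The remaining alternatives (level filter, probe set rules, eBayes options, threshold) gave counts of replication genes within 1.5 times the reported one. The cause of these changes was not tested.

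Of the 24 called replication genes, 24 kept their call with chemosensory centring, 7 with quantile normalization, 8 without RBP array 1, 7 without RBP array 2, 5 without each array in turn and 1 with the level trend removed.

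Differences changed sign as follows. With quantile normalization they were -0.25 for Orc3, -0.42 for Orc6, -0.47 for Gins2, -0.17 for Pola2 and -0.17 for Prim1. With the level trend removed they were -0.50 for Orc3, -0.67 for Orc6, -0.04 for Mcm4, -0.21 for Cdc45, -0.71 for Gins2, -0.41 for Pola2, -0.45 for Prim1, -0.18 for Pcna, -0.24 for Rfc2, -0.12 for Rfc3, -0.13 for Rfc4, -0.07 for Rfc5, -0.05 for Rpa2 and -0.03 for Rrm2. Of these genes, Mcm4, Rfc2 and Rpa2 had been called. Centred on the chemosensory genes Orc5 gave 0.27, Prim2 0.31 and Tyms 0.28, and centred on all genes Prim2 gave 0.02. When an array was left out, Orc5 ran from -0.28 to 0.20, Orc6 from -0.12 to 0.33, Prim2 from -0.08 to 0.07 and Tyms from -0.28 to 0.22.

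With the replicate number as a block in the fit (replicate block), 31 replication genes and 49 other pathway genes were higher and 0 lower, and none of the 24 called replication genes lost its call. Over all genes 5885 were higher and 2199 lower, against 4741 and 1304. Deviations from the group means correlated at 0.255 between arrays of the same number, over genes. Mpo and Cd34 were also higher on array 1 than on array 2 in both groups. The labels do not say whether arrays of the same number shared a cell preparation, and pairing was not tested.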
